A study of Mus musculus with 10 samples.

Results

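Spots with at least 2 unique molecular identifiers (UMIs, single captured RNA molecules) of Krt19 plus Krt7 were compared with spots that had 0, within 4 mouse liver tumors profiled on Visium slides. Krt19 (ENSMUSG00000020911, chr11:100140810-100148665, minus strand, mm10) and Krt7 (ENSMUSG00000023039, chr15:101411043-101430313, plus strand) encode keratins of bile duct epithelium. The rule found 1883 such spots, called positive spots here, among the 26022 tumor spots that passed the tissue and depth minimum. The other tumor spots were 21483 with 0 UMIs, called zero spots, and 2656 with 1 UMI, which entered neither side. The whole series held 34133 usable spots in 10 sections of 7 tissues.

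The tumors came from the ABC-Myc model, Alb-Cre+/wt::CAG-MYC+/wt mice on C57BL/6J. In these animals Cre under the albumin enhancer and promoter removes a floxed STOP cassette and releases human MYC driven by the CAG promoter, so the recombined cells are those in which the albumin promoter has been active. Tissue was frozen and cryosectioned, and neither the sources read here nor the labels give the age of each animal. NEJ146 was represented by 4 adjacent sections and NEJ634, NEJ723 and NEJ687 by 1 section each. The labels call all 7 tissues hepatoblastoma. The study describes its spatial set as tumors and healthy livers, with littermates that lacked Alb-Cre, CAG-MYC or both as normal controls of the model. Its text names only these 4 tissues as tumors, which leaves NEJ638, NEJ654 and NEJ677 as the livers, although no source read here ties those names to a genotype. No test of tumor against liver was made. The human MYC transgene was not counted.

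The bile ducts are lined by cholangiocytes, epithelial cells that descend from the same embryonic precursor, the hepatoblast, as hepatocytes do. Their fate is set by Notch and TGF-beta signals from the portal mesenchyme and by transcription factors such as Sox9, Sox4 and Onecut family members, and the Hippo pathway effector YAP can push hepatocytes toward a duct-like program. Keratin 7 and keratin 19, Epcam, osteopontin (Spp1) and mucins are classical duct products, and ductular cells sit on laminin-rich basement membrane next to portal fibroblasts. A Visium spot covers several cells, so a positive spot is a small region with keratin message in it and not a duct cell. A larger number of cells of a type and more RNA in each of them cannot be told apart in such sums.

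Positive spots were unevenly distributed among the tumors. In NEJ146 the 4 sections held 113, 210, 242 and 145 of them, 710 of 17988 spots in all, and the mean share was 3.91% ± 1.12 (SD, n = 4 sections). In NEJ634 878 of 1889 spots were positive, 46.5% (95% exact binomial interval 44.2 to 48.8%). In NEJ723 the share was 12.2% (10.8 to 13.6%, 265 of 2175 spots) and in NEJ687 it was 0.756% (0.51 to 1.08%, 30 of 3970 spots). These intervals cover counting error only. NEJ634 was thus the richest section and NEJ687 held exactly the minimum number of positive spots that the rule asks of a tumor.

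Depth moved with these shares and was weighed beside them. The sections totaled 61627315 to 117556249 UMIs. The median positive spot held 24661 ± 3298 UMIs in NEJ146 (SD, n = 4 sections) against 18863 ± 1992 for zero spots, 23405 against 18334 in NEJ723, 19963 against 13018 in NEJ687, and 26990 against 30711 in NEJ634. Positive spots were therefore deeper than zero spots in 3 tumors and shallower in NEJ634. When every spot was thinned to 8000 UMIs, leaving out 2, 150 and 526 shallower spots of NEJ634, NEJ723 and NEJ687, NEJ634 kept the highest share (18.3%), followed by NEJ723 with 2.96%, NEJ146 with 1.37% and NEJ687 with 0.319%. Against zero spots chosen for like depth, 410 genes passed the test described below, 291 of them among the 325 called without that choice. Depth was still unequal in NEJ634, where all 514 zero spots were taken, some repeatedly as added weight, and on average remained deeper than the positive spots, and in NEJ723, where those taken remained shallower on average.

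Keratin RNA was also counted outside the tissue. On spots that the deposited position lists place off the tissue, Krt19 and Krt7 together made 77.1 counts per 1000000 UMIs (CPM) in NEJ634 against 84.8 on tissue, 25.5 against 29.1 in NEJ723 and 2.62 against 2.99 in NEJ687. In NEJ634 565 of 3102 off-tissue spots (18.2%) would have counted as positive, in NEJ723 115 of 2593 (4.44%), and in NEJ687 0 of 534, which allows a share of up to 0.562%. The median off-tissue spot held 10520 UMIs in NEJ634, 7079 in NEJ723 and 6660 in NEJ687. Off-tissue levels of the selecting genes were thus close to the tissue levels of the same section, and the part of spread RNA in the shares above was not tested. NEJ146 had no tissue call, so its spots were taken by depth alone (8000 or more UMIs).

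**Figure D1:**
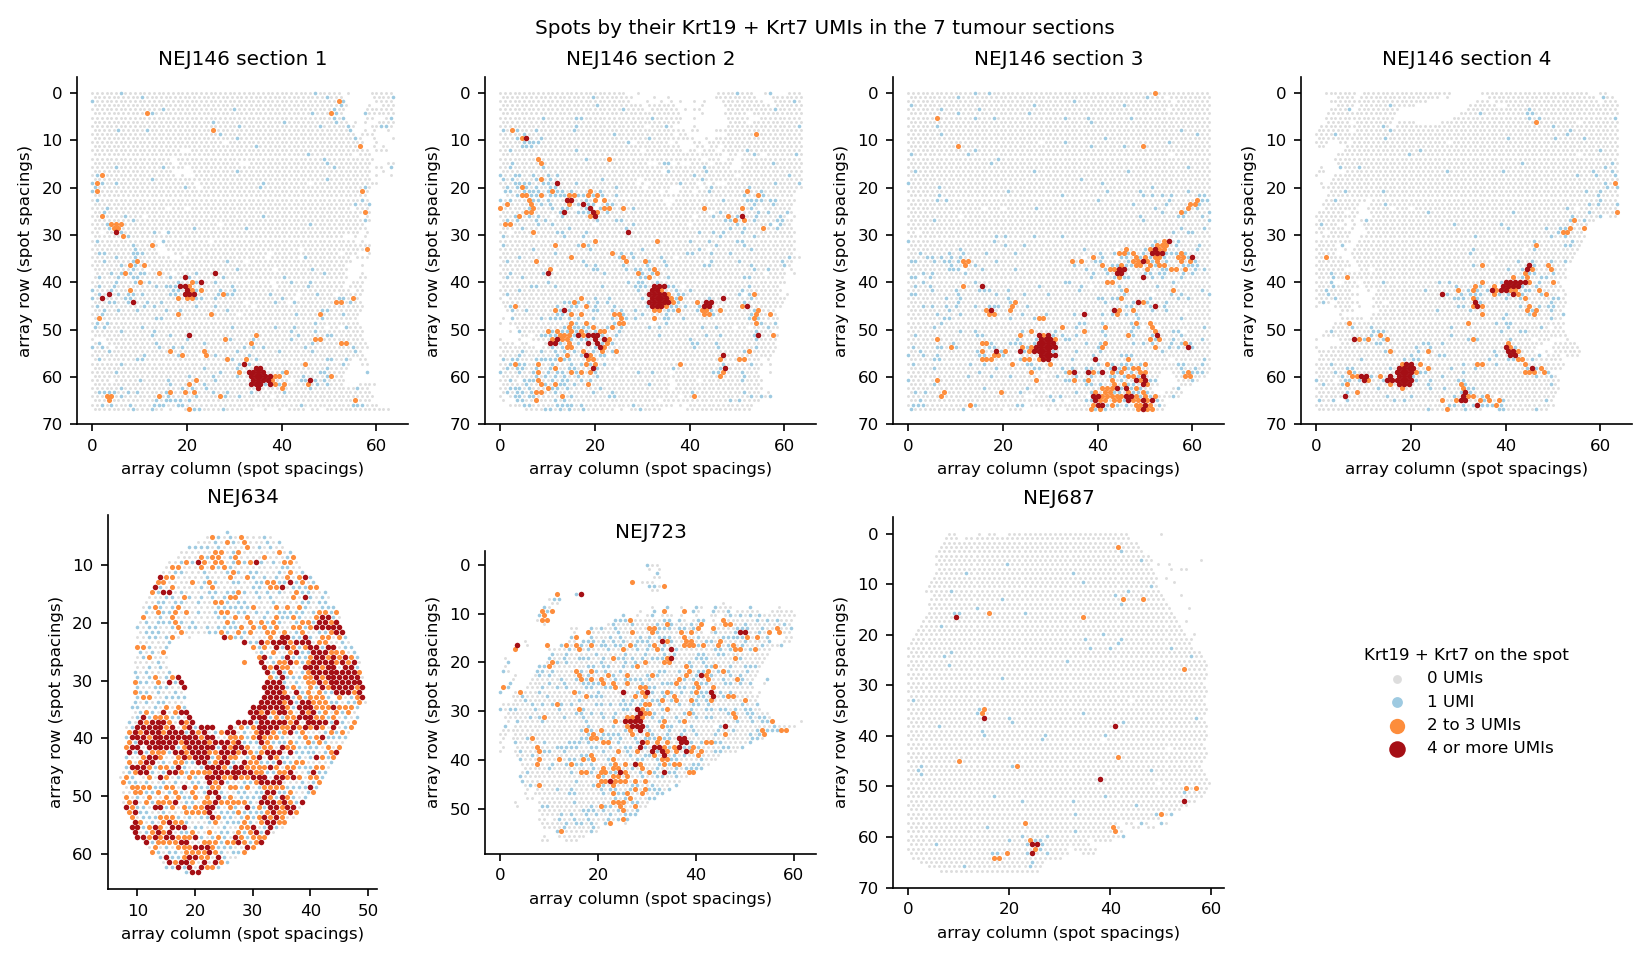
Each panel is one of the 7 tumor sections, with array column and array row in spot spacings, and each point is a used spot colored by its Krt19 and Krt7 UMIs (0, 1, 2 to 3, 4 or more). A compact cluster of spots with many UMIs appears in every NEJ146 section, positive spots cover much of NEJ634 (46.5%), and NEJ687 has 30 positive spots, 18 of them with no positive neighbor.

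Positive spots lay next to each other to different degrees. Among the occupied neighbors of positive spots, 25.4, 27.4, 38.5 and 36.5% were themselves positive in NEJ146 sections 1 to 4, 62.5% in NEJ634, 24.5% in NEJ723 and 10.1% in NEJ687. Each of these exceeded the share of positive spots in its section. The largest count in a single spot was 41 UMIs in NEJ146 and 40 in NEJ634, against 17 in NEJ723 and 9 in NEJ687. Spots with fewer than 6 neighbors among the used spots were called marginal, whether at the tissue edge or beside a spot under the depth minimum. They made 4.76 to 8.28% of positive spots in NEJ146 against 9.8 to 17.7% of zero spots, and 12.2% against 14.4% in NEJ634, 13.6% against 16.8% in NEJ723 and 3.33% against 7.64% in NEJ687. In all 7 sections positive spots were thus less often marginal than zero spots. Zero spots were also shallower in NEJ146, NEJ723 and NEJ687, and the part of depth in this was not tested.

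The balance of the selecting keratins differed between tumors. On positive spots Krt19 reached 112 ± 30.5 CPM in NEJ146 (SD, n = 4 sections) and was at 88.7 CPM for NEJ634, 25.3 for NEJ723 and 107 for NEJ687. Krt7 reached 74.1 ± 10.5, 84.2, 85.6 and 35.7 CPM in the same order. NEJ723 was the Krt7-rich tumor, with 1004 Krt7 and 265 Krt19 UMIs on its used spots, and NEJ687 the Krt19-rich one, with 118 Krt19 and 53 Krt7 UMIs. These levels chose the spots and are a description without a test.

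Each keratin could be read on spots chosen by the other. On spots with 2 or more Krt19 UMIs, Krt7 was 79.0 CPM in NEJ146 (64.8 to 104 over its sections) against 2.80 where Krt19 was 0, 93.5 against 21.05 in NEJ634, 69.9 against 21.2 in NEJ723 (29 spots) and 24.3 against 0.61 in NEJ687 (22 spots). The Krt7 values were higher on the Krt19 spots of all 4 tumors, with the smallest ratio in NEJ723. On spots chosen by Krt7, Krt19 was 145 CPM against 3.46 in NEJ146, 103 against 17.8 in NEJ634, 15.01 against 4.43 in NEJ723 and 110 against 1.49 in NEJ687 (6 spots). Both keratins chose the positive spots, so these values are a description without a test.

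The threshold cut a gradient. Epcam, a surface adhesion molecule of duct epithelium that the rule did not use, was 3.66 CPM on NEJ146 spots with 0 keratin UMIs, 17.1 with 1 UMI, just outside the rule, 33.6 with exactly 2, just inside it, and 90.0 with 4 or more. The same steps gave 19.9, 30.1, 46.5 and 144 CPM in NEJ634, 51.6, 59.7, 71.3 and 125 in NEJ723, and 1.14, 8.65, 40.2 and 75.8 in NEJ687. Spp1 went from 60.7 to 273, 508 and 1091 CPM in NEJ146, from 46.8 to 187, 1150 and 1751 in NEJ687, and from 21.7 to 31.2, 59.8 and 132 in NEJ723. Spots with 1 UMI lay between the sides for both genes, except for Spp1 in NEJ634, where the spots with 1 UMI (179 CPM) were no higher than those with 0 (200 CPM) and those with exactly 2 and with 4 or more had 271 and 899.

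To find what else set the positive spots apart, raw UMIs were summed over the positive and the zero spots of each tumor and compared with the tumor as a block, which gave 8 libraries from 4 tumors. Of 13648 genes tested, 190 rose on positive spots (1.39%) and 135 fell (0.989%) at an edgeR adjusted p of at most 0.05, together 2.38%. The rises were larger, with a median fitted log2 fold change of 1.29 against -0.65 for the falls, and 176 of the 190 were higher in 4 of 4 tumors and 127 of the 135 lower in 4 of 4, beside 22.5% and 8.26% of all tested genes. Among the genes that rose, the median log2(CPM + 1) difference was 1.73 for NEJ146, 1.13 for NEJ634, 0.51 for NEJ723 and 1.495 for NEJ687, so NEJ723 showed the smallest contrast.

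These counts rest on few tumors and sit near the threshold. The lowest adjusted p was 0.0274, and 505 more genes were higher and 446 lower with an edgeR adjusted p between 0.05 and 0.10. Without NEJ634, or without NEJ687, no gene passed in either direction (2022 and 2552 genes at an unadjusted p of at most 0.05), without NEJ146 35 rose and 15 fell, without NEJ723 951 rose and 650 fell, and without section 2 of NEJ146 45 rose and 23 fell. A test with limma on the log2 differences called 0 genes (2747 unadjusted) and scaling by library totals alone 0 (3020 unadjusted), whereas DESeq2 called 517 higher and 381 lower. The scale itself moved the median gene, from -0.03 with TMM factors to 0.11 with library totals. At an unadjusted edgeR p of at most 0.05, 1529 genes were higher and 1553 lower with TMM factors. With library totals these were 2373 and 647, so the number of falls depends on the scale. The NEJ687 positive library held 644730 UMIs, so a gene's NEJ687 value often rests on a few UMIs.

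Duct keratin partners and epithelial junction genes were the first group read. Of the 18 measured members, 4 rose, 0 fell, and 16 were higher in 4 of 4 tumors. Of all tested genes 1.39% rose, 0.989% fell, and 22.5% were higher and 8.26% lower in 4 of 4 tumors. These shares stand beside the counts of the lists below as well. The median fitted log2 fold change of the list was 0.88 beside -0.03 for all genes. Its median log2(CPM + 1) difference was 1.67 for NEJ146, 0.84 for NEJ634, 0.30 for NEJ723 and 1.18 for NEJ687. Over all genes tested this median was 0.16, 0.12, 0.003 and 0.099 in the same order. The members that rose were Prom1, Krt18, F11r and Itgb4.

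Prom1 (prominin 1, CD133, a membrane protein of progenitor and duct cells; chr5:43993620-44102032) was 17.8 ± 2.70 CPM on the positive and 3.54 ± 0.848 on the zero spots of NEJ146, 33.4 against 10.1 in NEJ634, 12.5 against 6.10 in NEJ723 and 23.3 against 9.40 in NEJ687. The lowest positive value lay above the highest zero value, as it did for 3.77% of all tested genes, and the rise was 2.79-fold (log2 fold change 1.48 ± 0.18 SE, edgeR adjusted p = 0.0274). Krt18, the keratin that simple epithelia and hepatocytes share, was 539 ± 71.1 against 212 ± 28.3 CPM in NEJ146, 436 against 299 in NEJ634, 465 against 361 in NEJ723 and 471 against 222 in NEJ687. Again the sides did not overlap, with a rise of 1.61-fold (adjusted p = 0.0461). Krt8, its partner, missed the threshold (log2 fold change 0.67, adjusted p = 0.0547). F11r, a tight junction adhesion molecule, rose 1.67-fold, and Itgb4, the hemidesmosome integrin chain, rose 5.33-fold, from 0.362 to 1.55 CPM in NEJ687 on 1 positive UMI.

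Epcam itself (chr17:87635979-87651129) was 53.0 ± 3.41 CPM on positive against 3.66 ± 1.22 on zero spots in NEJ146, 92.8 against 19.9 in NEJ634, 85.9 against 51.6 in NEJ723 and 68.2 against 1.14 in NEJ687. All 4 positive values lay above all 4 zero values, yet the ratio ranged widely and the edgeR test did not pass (log2 fold change 2.57 ± 0.59 SE, adjusted p = 0.0554). The claudins, which seal tight junctions, behaved alike in not passing. Cldn7 was 104 ± 31.6 against 8.49 ± 4.79 CPM in NEJ146, 248 against 99.2 in NEJ634, 354 against 288 in NEJ723 and 71.3 against 2.59 in NEJ687 (adjusted p = 0.0865). Cldn4 (adjusted p = 0.0579) and Cldn6 (0.0648) were likewise higher in 4 of 4 tumors. In NEJ723 the zero spots already carried 51.6 CPM of Epcam and 288 CPM of Cldn7, more than the zero spots of any other tumor.

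**Figure D2:**
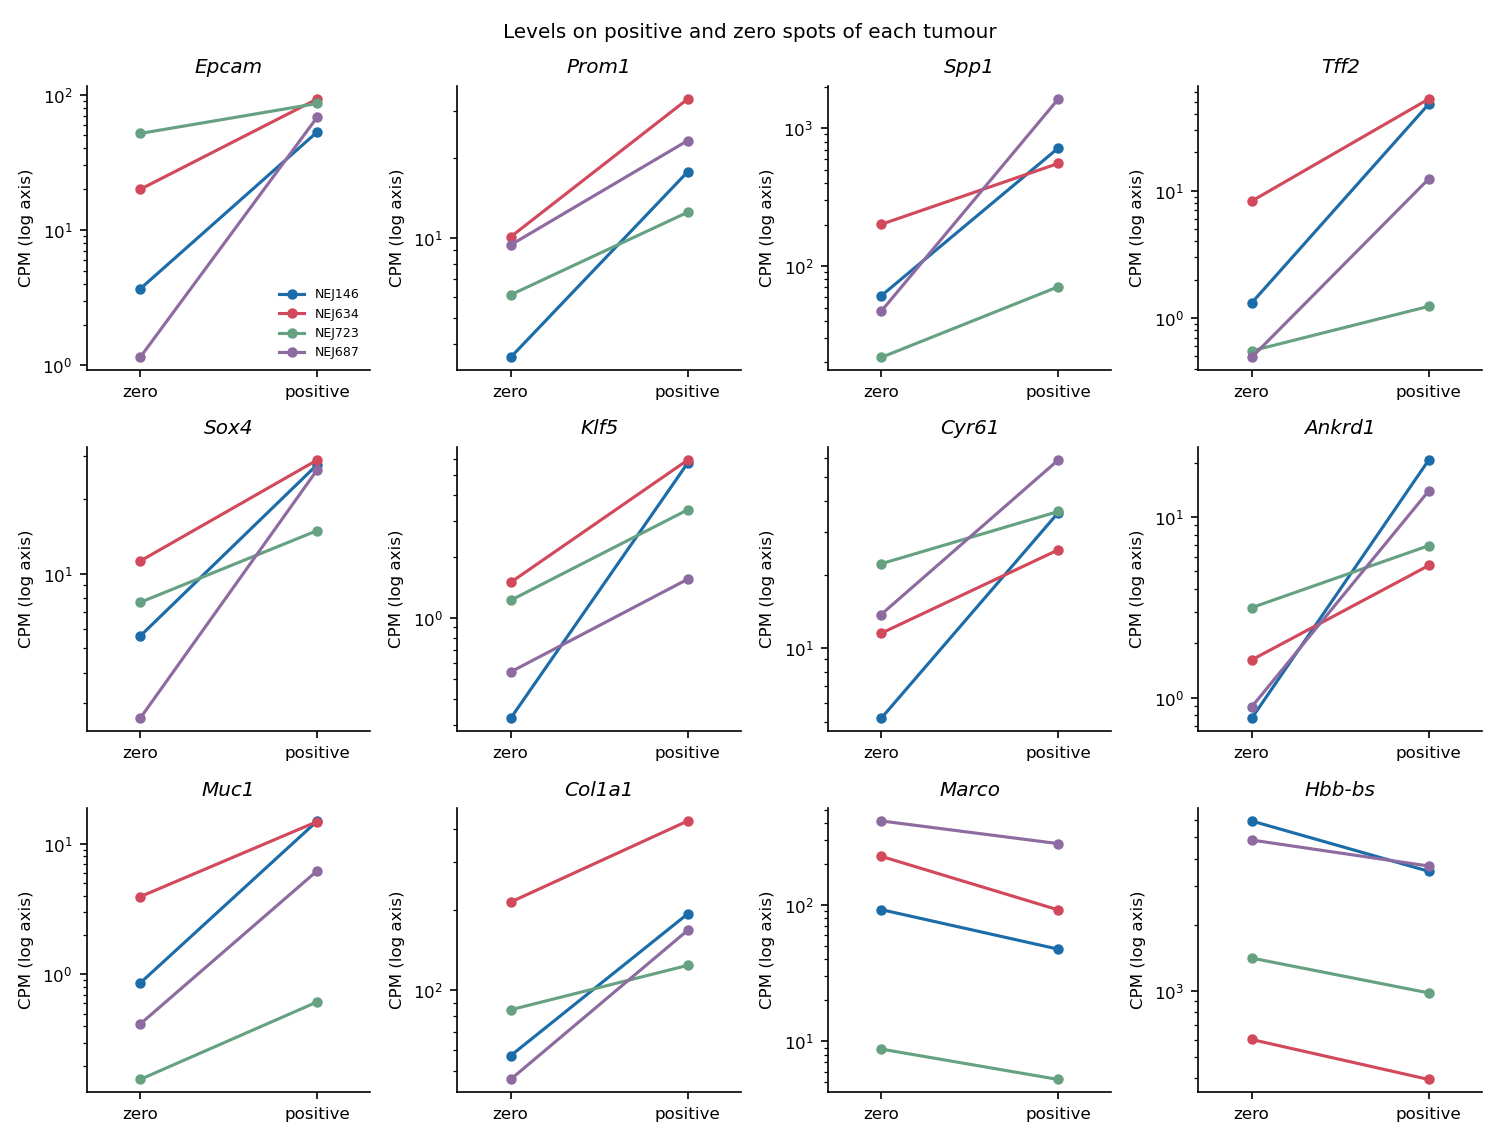
Each panel shows 1 gene, with CPM on a log axis, and each line joins the zero and the positive spots of 1 tumor (NEJ146 is the mean of 4 sections). Epcam, Prom1, Sox4, Klf5, Cyr61, Ankrd1, Muc1, Spp1, Tff2 and Col1a1 were higher on positive spots in 4 of 4 tumors, Epcam without passing the test, and Marco and Hbb-bs were lower in 4 of 4.

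Secreted and transport proteins of the biliary tree had the highest list median. Among 23 measured members, 5 rose (Spp1, Tff2, Muc1 and Wfdc2 among them) and 0 fell, beside 1.39 and 0.989% of all tested genes. In 4 of 4 tumors 14 were higher and 1 was lower, beside 22.5 and 8.26%. At an unadjusted edgeR p of at most 0.05, 15 were higher and 3 lower, beside 11.2 and 11.4% of all tested genes. The median fitted log2 fold change was 1.22. Spp1 (osteopontin, a matrix protein secreted by duct cells; chr5:104435118-104441050) was 718 ± 119 CPM on positive against 60.7 ± 13.4 on zero spots in NEJ146, 556 against 200 in NEJ634, 70.8 against 21.7 in NEJ723 and 1630 against 46.8 in NEJ687. The positive spots of NEJ723 fell below the zero spots of NEJ634, so the sides overlapped between tumors while every tumor moved the same way (6.79-fold, log2 fold change 2.76 ± 0.52 SE, edgeR adjusted p = 0.0436).

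Tff2, a trefoil peptide of mucous epithelia (chr17:31141049-31144282), was 48.0 ± 22.0 against 1.31 ± 0.438 CPM in NEJ146, 52.7 against 8.28 in NEJ634, 1.23 against 0.551 in NEJ723 and 12.4 against 0.489 in NEJ687. It rose 11.6-fold in the fit (adjusted p = 0.0317), with little of it in NEJ723 on either side. Muc1, a transmembrane mucin, showed the same split, at 14.9 ± 5.29 against 0.857 ± 0.133, 14.7 against 3.92, 0.617 against 0.157 and 6.20 against 0.417 CPM in NEJ146, NEJ634, NEJ723 and NEJ687 (6.70-fold, adjusted p = 0.0323). Wfdc2, a secreted protease inhibitor, rose 3.97-fold (adjusted p = 0.0371).

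Other duct products did not pass. Clu (clusterin, a secreted chaperone) was 2173 ± 196 against 559 ± 150 CPM in NEJ146, 1087 against 714 in NEJ634, 1082 against 772 in NEJ723 and 2441 against 436 in NEJ687 (log2 fold change 1.22, edgeR adjusted p = 0.057). Its sides did not overlap. Cftr, the chloride channel of bile secretion, was at 0.926 to 6.20 CPM on positive and 0.0942 to 0.747 on zero spots (adjusted p = 0.121), and Sctr, the secretin receptor, at 0.712 to 3.10 against 0.181 to 0.933 (adjusted p = 0.0891). These membrane proteins of mature ducts were thus sparse throughout.

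The label duct-like was only partly borne out by the markers. Epcam, Spp1, Cldn4, Cldn7 and Sox9 were higher on positive spots in 4 of 4 tumors, but of these Spp1 alone passed the test. In NEJ723 the duct products Spp1 (70.8 CPM), Sox9 (1.70), Tff2 (1.23) and Muc1 (0.617) stayed low on positive spots while Epcam and the claudins were high on both sides. Alb, made by hepatocytes, was abundant on positive spots (8012 to 13755 CPM) and in each tumor no lower there than on zero spots. The spots are therefore named by their keratins and not by a cell type.

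Among called genes that were higher in 4 of 4 tumors, the 20 with the largest rises included Tff2, Muc1, Spp1 and Itgb4, given above, and Ankrd1, described below. Wnt10a, a Wnt ligand, had the largest, at 2.93 ± 1.78 against 0.103 ± 0.0305 CPM in NEJ146, 1.81 against 0.249 in NEJ634, 0.772 against 0.0394 in NEJ723 and 3.10 against 0.0543 in NEJ687 (log2 fold change 4.02 ± 0.56 SE, edgeR adjusted p = 0.0305). Its sides did not overlap, though the positive values rested on 49, 45, 5 and 2 UMIs. The filter on low counts can keep a gene through the libraries of a single side. A gene as sparse on zero spots as Wnt10a may thus have been tested only because it was high on positive spots, which limits its rank and p-value. Sema3c, a secreted semaphorin guidance cue (3.96 ± 1.19 against 0.335 ± 0.108, 4.91 against 0.996, 1.70 against 0.275 and 10.9 against 0.199 CPM), rose 8.63-fold, and Kcnk1, a potassium channel (9.79 ± 3.55 against 0.407 ± 0.0274, 15.1 against 1.80, 11.3 against 4.88 and 9.30 against 0.163 CPM), rose 7.31-fold. For both genes the sides did not overlap.

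Another 11 of these genes included secreted, channel and adhesion proteins. Sftpd (surfactant protein D) rose 9.87-fold, from 1.36 ± 0.224 to 30.7 ± 13.4 CPM in NEJ146 and from 0.507 to 27.9 in NEJ687, but stood at 0.309 against 0.275 CPM in NEJ723. Ano1, a calcium-activated chloride channel, rose 5.78-fold (17.4 ± 6.53 against 1.33 ± 0.310 in NEJ146 and 4.63 against 1.18 in NEJ723; adjusted p = 0.028). Fxyd3, a regulator of the sodium pump, rose 6.03-fold and Cdh6, a cadherin of fetal epithelia, 7.18-fold. Epn3, S100b, Fabp3, Gprc5a, Eprn and Scube3 rose 6.15- to 8.93-fold on 1 to 5 positive UMIs in NEJ687. Cubn, an endocytic receptor, is uncertain, since it had 0 UMIs on the zero spots of NEJ634 and NEJ687 and 5.99 ± 4.87 CPM on the positive spots of NEJ146.

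Transcription factors of the biliary lineage came next. Of 11 measured, 3 rose (Sox4, Klf5 and Onecut2) and 0 fell, with a median fitted log2 fold change of 1.06, and Grhl2, Irx3 and Onecut1 were too low to be tested. Sox4, which acts with Sox9 in duct formation, was 27.7 ± 4.74 against 5.60 ± 0.721 CPM in NEJ146, 28.9 against 11.3 in NEJ634, 14.97 against 7.67 in NEJ723 and 26.4 against 2.61 in NEJ687. The sides did not overlap (3.05-fold, log2 fold change 1.61 ± 0.27 SE, edgeR adjusted p = 0.0371). Klf5, an epithelial zinc-finger factor, was 5.76 ± 2.17 against 0.321 ± 0.0533, 5.96 against 1.49, 3.39 against 1.22 and 1.55 against 0.543 CPM (4.77-fold, adjusted p = 0.0436), again without overlap, although the NEJ687 value is 1 UMI and lies close to the 1.49 CPM of the NEJ634 zero spots. Onecut2 rose 2.08-fold (adjusted p = 0.0455). Sox9 (chr11:112782224-112787760) was 8.52 ± 1.81 against 1.76 ± 0.379 CPM in NEJ146, 7.12 against 2.74 in NEJ634, 1.70 against 0.787 in NEJ723 and 12.4 against 0.652 in NEJ687, and did not pass (log2 fold change 1.82, adjusted p = 0.053).

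Genes of the Notch and TGF-beta pathways, which act on bile duct fate, followed. Of 16 Notch pathway members 1 rose, the ligand Jag1, at 12.1 ± 2.47 against 2.47 ± 0.469 CPM in NEJ146, 9.86 against 4.29 in NEJ634, 3.09 against 2.24 in NEJ723 and 12.4 against 2.45 in NEJ687 (2.57-fold, edgeR adjusted p = 0.0469). Each tumor was higher on its positive spots, least of all NEJ723. The receptor Notch2 was 22.3 ± 2.31 against 20.04 ± 1.41, 33.4 against 30.7, 32.1 against 29.3 and 23.3 against 30.8 CPM (adjusted p = 0.949). Of 14 TGF-beta pathway members 2 rose, the ligand Tgfb2 (5.41 ± 0.551 against 1.42 ± 0.200, 7.12 against 3.05, 2.31 against 1.02 and 10.9 against 1.56 CPM; adjusted p = 0.0436) and Itgb6, an integrin chain that activates latent TGF-beta. Itgb6 was at 0 UMIs on the positive spots of NEJ687, so its rise reflects the other 3 tumors, each of them higher on positive spots. The median fitted log2 fold change was 0.31 for the Notch list and 0.55 for the TGF-beta list. At an unadjusted edgeR p of at most 0.05, 5 Notch genes were higher and 1 lower, and 10 TGF-beta genes were higher and 0 lower. Of all tested genes 11.2% were higher and 11.4% lower at that threshold.

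Genes that YAP and its TEAD partners are known to activate held the most rises of the 26 lists. Of 13 measured, 7 rose (Cyr61, Ctgf, Ankrd1, Ajuba, Ptpn14, F3 and Tgfb2, the last also in the TGF-beta list), 0 fell and 12 were higher in 4 of 4 tumors. Of all tested genes 1.39% rose and 22.5% were higher in 4 of 4. The median fitted log2 fold change was 0.90, and the median log2(CPM + 1) differences were 1.43, 0.70, 0.36 and 1.75 in NEJ146, NEJ634, NEJ723 and NEJ687. Cyr61, a matricellular protein, was 35.9 ± 6.12 against 5.16 ± 0.997 CPM in NEJ146, 25.3 against 11.5 in NEJ634, 36.3 against 22.2 in NEJ723 and 58.9 against 13.7 in NEJ687. Its sides did not overlap (2.80-fold, log2 fold change 1.48 ± 0.28 SE, edgeR adjusted p = 0.0436). Ankrd1, a nuclear ankyrin protein, was 20.7 ± 4.19 against 0.768 ± 0.152, 5.39 against 1.62, 6.94 against 3.15 and 14.0 against 0.888 CPM (6.18-fold, adjusted p = 0.0469), also without overlap.

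Ajuba, a LIM protein that restrains the Hippo kinases, was 31.7 ± 2.36 against 10.9 ± 1.18 CPM in NEJ146, 27.8 against 14.3 in NEJ634, 26.5 against 20.5 in NEJ723 and 31.0 against 11.3 in NEJ687 (1.84-fold, edgeR adjusted p = 0.0436). Its positive values were nearly equal in the 4 tumors and all lay above the zero values. F3 (tissue factor) rose 3.07-fold (adjusted p = 0.0362), Ptpn14, a phosphatase that binds YAP, 3.66-fold (0.0469), and Ctgf 2.06-fold (0.0464). For F3 and Ptpn14 the sides did not overlap, while Ctgf ran from 21.4 CPM on the positive spots of NEJ723 to 27.0 on the zero spots of NEJ687.

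The TEAD-binding letters CATTCC, or GGAATG for the other strand, were looked for in the 250 bases before each RefSeq start (GRCm38.p6). They occurred in 7 of the 11 list members that the promoter table held (63.6%) and in 3880 of all its 27025 genes (14.4%). The list was chosen as known targets of YAP and TEAD, so this difference says nothing about the positive spots. Of the genes that rose, Cyr61 (named Ccn1 there), Ankrd1, Ajuba and Ptpn14 had a match and F3 and Tgfb2 had none in this window. Of the 5 held that did not pass as higher, Amotl2, Axl and Crim1 had a match and Amotl1 and Lats2 had none. The other 2 members are Ctgf, which rose, and Nuak2. The matches of the genes that rose are printed 5′ to 3′ on the gene's own strand, with 12 bases on each side and the motif in capitals, to show the shared letters.
Cyr61, chr3:145650071-145650100, minus strand: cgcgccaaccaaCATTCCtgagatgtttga
Ankrd1, chr19:36120037-36120066, minus strand: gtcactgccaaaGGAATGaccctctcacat
Ankrd1, chr19:36119950-36119979, minus strand: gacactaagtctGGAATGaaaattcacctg
Ajuba, chr14:54577830-54577859, minus strand: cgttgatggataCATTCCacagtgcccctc
Ajuba, chr14:54577808-54577837, minus strand: tgcccctccgcgCATTCCaactgtaaacaa
Ptpn14, chr1:189728110-189728139, plus strand: cctccccggacgCATTCCtggcccgcccag
A match is a description of the sequence and does not show that the site is bound in these tumors.

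Some connective tissue genes also rose on positive spots. Of 20 fibroblast and portal mesenchyme genes 4 rose (Col1a1, Col1a2, Col5a1 and Fbln1) and 0 fell, with a median fitted log2 fold change of 1.001, but the median difference was 1.67 for NEJ146, 0.75 for NEJ634, -0.07 for NEJ723 and 1.87 for NEJ687. Col1a1 (the alpha 1 chain of type I collagen) was 193 ± 31.4 against 57.0 ± 9.77 CPM in NEJ146, 428 against 213 in NEJ634, 124 against 84.6 in NEJ723 and 167 against 46.5 in NEJ687. It was higher on the positive side in every tumor (2.17-fold, edgeR adjusted p = 0.0362), though the zero spots of NEJ634 exceeded the positive spots of the other 3. Fbln1, a matrix glycoprotein, was 34.2 ± 9.37 against 4.83 ± 0.675, 13.1 against 4.42, 1.08 against 0.944 and 38.8 against 1.92 CPM (4.59-fold, adjusted p = 0.0455).

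Basement membrane genes had positive list medians in all 4 tumors. Of 12 measured, 5 rose (Lama5, Lamb1, Lamb2, Nid1 and Sparc) and 0 fell, beside 1.39 and 0.989% of all tested genes. The list had a median of 0.69 and tumor medians of 1.21, 0.77, 0.36 and 0.91. Lamb1, a laminin chain, was 38.4 ± 4.53 against 14.8 ± 1.80 CPM in NEJ146, 85.1 against 41.5 in NEJ634, 59.4 against 41.8 in NEJ723 and 66.7 against 16.5 in NEJ687 (1.99-fold, edgeR adjusted p = 0.0379). Lama5, another laminin chain, rose 1.71-fold (adjusted p = 0.0362) and Lamb2 rose 2.10-fold (0.0455), the latter without overlap of its sides. Among 7 smooth muscle genes Acta2 rose (1.80-fold, adjusted p = 0.0464), and of 8 stellate cell and 14 endothelial genes 0 passed in either direction, with medians of 0.11 and 0.10.

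**Figure D3:**
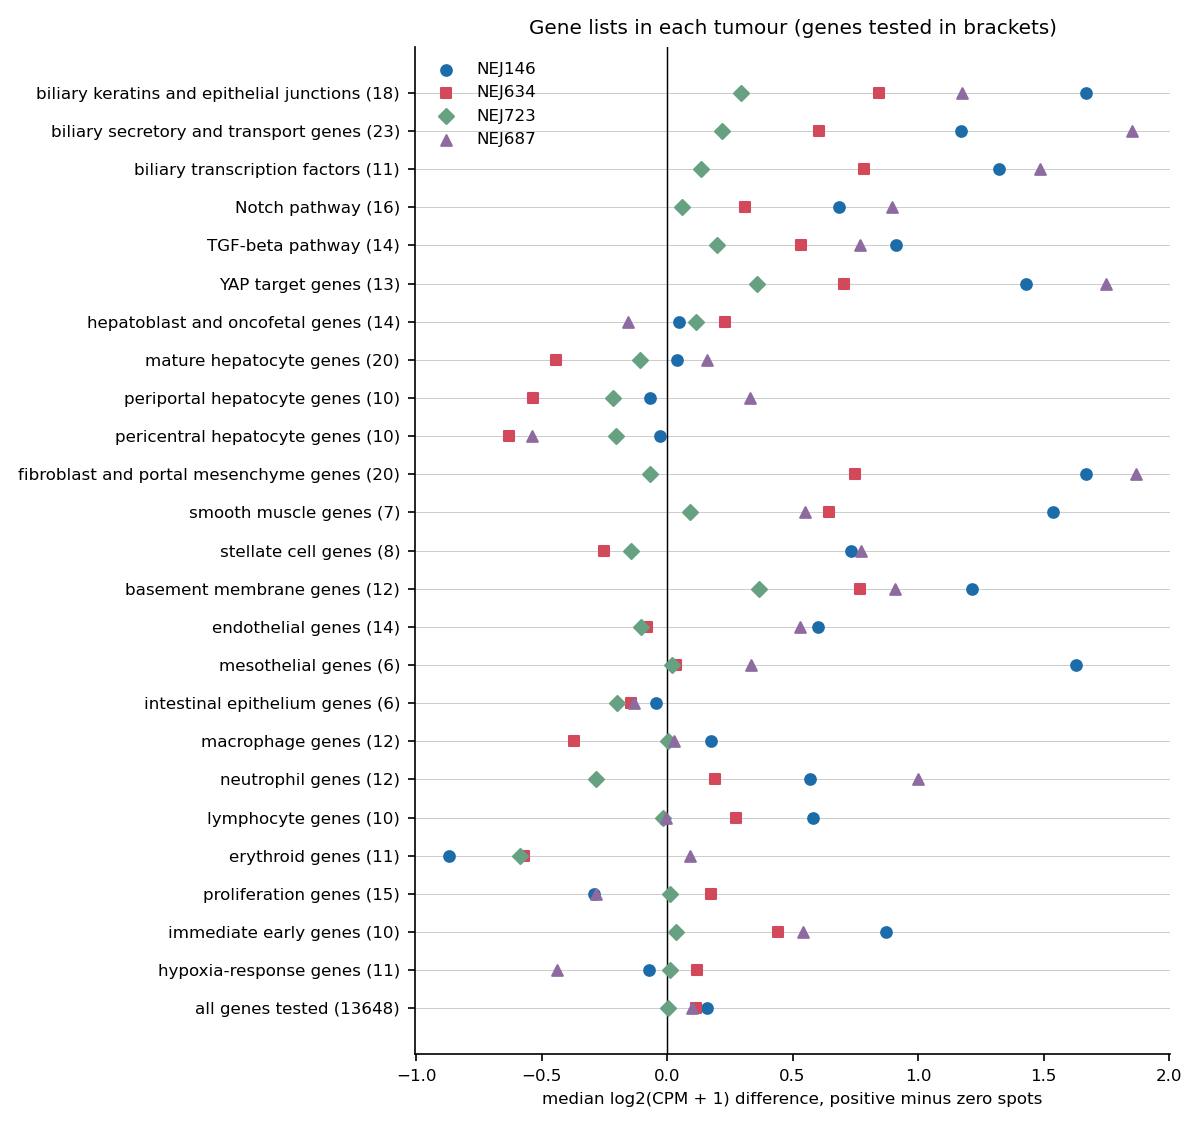
Each row is a gene list with the number of genes tested in brackets, and each symbol is the median log2(CPM + 1) difference between positive and zero spots of 1 tumor. The median over all genes tested was 0.16, 0.12, 0.003 and 0.099 in NEJ146, NEJ634, NEJ723 and NEJ687. The duct, YAP target and basement membrane lists lie right of 0 in all 4 tumors, NEJ723 nearest to 0, while the erythroid list lies left of 0 in NEJ146, NEJ634 and NEJ723 (-0.87, -0.57 and -0.59) and near 0 in NEJ687 (0.09).

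Hepatocyte and hepatoblast products were abundant on both sides. Alb was 13755 ± 2705 against 8899 ± 1917 CPM in NEJ146, 12923 against 12766 in NEJ634, 8012 against 7820 in NEJ723 and 11713 against 8556 in NEJ687 (edgeR adjusted p = 0.605). Afp, alpha-fetoprotein, the fetal counterpart of albumin, was 2486 ± 1254 against 1971 ± 291, 4479 against 3816, 3687 against 3174 and 2970 against 4103 CPM (adjusted p = 0.973). Neither gene separated the sides. Of 14 hepatoblast and oncofetal genes 0 passed in either direction, with a median of 0.00. At an unadjusted edgeR p of at most 0.05, 4 were higher and 4 lower, beside 11.2 and 11.4% of all tested genes. Dlk1, a hepatoblast surface protein, had a log2 fold change of 1.0 (edgeR adjusted p = 0.0919) and the imprinted RNA H19 one of -0.82 (adjusted p = 0.0554).

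A few metabolic genes fell. Of 20 mature hepatocyte genes 2 fell and 0 rose, namely Cps1, the first enzyme of the urea cycle, and G6pc, glucose 6-phosphatase, while 1 of 10 periportal genes (Gls2, glutaminase 2) and 1 of 10 pericentral genes (Rgn, regucalcin) fell. Cps1 was 1480 ± 109 against 2345 ± 88.6 CPM in NEJ146, 1162 against 2057 in NEJ634, 1026 against 1222 in NEJ723 and 1813 against 2316 in NEJ687 (fell by 0.69 on the log2 scale, edgeR adjusted p = 0.045). Rgn was 260 ± 24.6 against 351 ± 23.6, 230 against 372, 53.4 against 70.8 and 138 against 231 CPM (fell by 0.73 on the log2 scale, adjusted p = 0.0344). Both were lower on positive spots in 4 of 4 tumors. The fitted list medians were -0.19 for mature hepatocyte, -0.24 for periportal and -0.61 for pericentral genes, but the tumors did not move alike. The median log2(CPM + 1) differences of NEJ146, NEJ634, NEJ723 and NEJ687 were 0.04, -0.44, -0.11 and 0.16 for mature hepatocyte genes, -0.07, -0.53, -0.21 and 0.33 for periportal genes and -0.03, -0.63, -0.20 and -0.54 for pericentral genes. NEJ634 was thus the lowest of the tumors in each of these lists. Over all genes tested the same medians were 0.16, 0.12, 0.003 and 0.099, so a value near 0 in NEJ146 lies below its median gene.

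The 10 genes with the largest falls were led by low-level genes. Gm9992 was 6.22 ± 1.26 against 15.1 ± 2.43 CPM in NEJ146, 3.30 against 11.4 in NEJ634, 0.463 against 0.787 in NEJ723 and 4.65 against 13.7 in NEJ687 (log2 fold change -1.69, edgeR adjusted p = 0.0274). Thrsp, a regulator of lipogenesis, was 36.5 ± 2.63 against 59.8 ± 5.68, 42.7 against 84.0, 3.09 against 4.53 and 9.30 against 17.9 CPM (fell by 0.99 on the log2 scale, adjusted p = 0.0274). Lect2, a secreted hepatocyte protein, fell by 0.98 on the log2 scale and Akr1b7, an aldose reductase family member, by 1.04. Kcnn2 (-1.14), Slc4a9 (-1.15), Scn2a (-1.19), AC169509.3 (-1.29) and Sult2a3 (-1.55) were the other 5 beside Marco, and Sult2a3 had 0 UMIs on the positive spots of NEJ723.

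Some macrophage and red cell genes fell on positive spots. Of 12 macrophage genes 3 fell (Marco, Cd5l and Vsig4) and 0 rose, with a fitted median of -0.16 and tumor medians of 0.17, -0.37, 0.01 and 0.03. The summed level of the list was 1928 against 1640 CPM in NEJ146, 1654 against 1933 in NEJ634, 929 against 933 in NEJ723 and 2866 against 2652 in NEJ687, so the list as a whole had no common direction. Marco, a scavenger receptor of resident macrophages, was 47.5 ± 6.54 against 92.7 ± 10.2 CPM in NEJ146, 92.1 against 228 in NEJ634, 5.25 against 8.78 in NEJ723 and 282 against 414 in NEJ687 (fell by 1.10 on the log2 scale ± 0.13 SE, edgeR adjusted p = 0.0274). Every tumor was lower on its positive spots. Other genes of the list did not follow, since C1qa, a complement subunit, had a log2 fold change of 0.02 (adjusted p = 0.973) and Lyz2, lysozyme, one of 0.53 (adjusted p = 0.0614).

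Of 11 erythroid genes 6 fell (Car2, Alas2 and the globins Hba-a1, Hbb-bs, Hba-a2 and Hbb-bt) and 0 rose. Hbb-bs, a beta-globin, was 3501 ± 1762 against 5937 ± 539 CPM in NEJ146, 395 against 601 in NEJ634, 979 against 1412 in NEJ723 and 3700 against 4861 in NEJ687 (fell by 0.77 on the log2 scale, edgeR adjusted p = 0.0371). The spread between NEJ146 sections on the positive side was wide, and Alas2 and Car2 were not lower in NEJ687 (57.4 against 53.7 and 97.7 against 91.6 CPM). The level on zero spots varied with their distance. In NEJ146 Hba-a1 was 1068 CPM on positive spots and 1003, 1002, 1075 and 1320 CPM on zero spots 1 to 4 steps away, but 2646 CPM on zero spots 5 or more steps away. In NEJ634 it was 157 CPM on positive spots against 250 and 256 at 1 and 2 steps and 98.3 and 105 at 3 and 4 steps, the last 2 on 17 and 2 spots only, and in NEJ687 1419 against 1350, 1295, 1143 and 1120 at 1 to 4 steps and 1789 beyond. In NEJ723 it was 395 CPM on positive spots against 481, 607, 749 and 657 at 1 to 4 steps and 1054 beyond. Positive spots were thus below their direct neighbors in NEJ634 and NEJ723. The sections of NEJ146 went both ways, at 1826 against 1115, 755 against 951, 921 against 895 and 768 against 1051 CPM in sections 1 to 4, and the direction of its mean rests on section 1. With zero spots limited to those within 4 steps, 3 erythroid genes fell in place of 6, while 14 of the 18 duct junction genes rose in place of 4, and over all 13420 genes tested that way 500 rose in place of 190 and 396 fell in place of 135.

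Markers of other cell types that can express keratins were counted as well. Mesothelial genes, of which 6 of 12 could be tested, had 0 calls. At an unadjusted edgeR p of at most 0.05, 3 were higher, beside 11.2% of all tested genes. Their summed level was 192 against 42.6 CPM in NEJ146, 24.5 against 24.5 in NEJ634, 37.0 against 33.8 in NEJ723 and 58.9 against 15.6 in NEJ687. The mesothelial list thus moved with the positive spots in NEJ146 and NEJ687, and its part in their results was not tested. Msln, mesothelin, was 10.3 ± 5.18 against 1.06 ± 0.247 CPM in NEJ146, 2.29 against 1.62 in NEJ634, 0.772 against 0.354 in NEJ723 and 0 against 0.0543 in NEJ687, while Wt1, Upk1b and Lrrn4 were too low to be tested.

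Stratified epithelium was represented by 4 testable genes, of which Krt17, a keratin of basal and stressed epithelium, and Sfn, 14-3-3 sigma, rose (5.32- and 4.09-fold), whereas the defining basal markers Krt5, Krt14 and Trp63 were near 0 and not tested. Krt17 was at 0 UMIs on the positive spots of NEJ687. Among 6 intestinal genes Cdh17, a cadherin of gut and some duct epithelium, rose and Lgals4, a galectin, fell. Cdh17 was 5.28 ± 2.34 against 0.251 ± 0.176 CPM in NEJ146, 23.7 against 5.54 in NEJ634 and 34.9 against 14.2 in NEJ723, but 0 against 0.0362 in NEJ687 (edgeR adjusted p = 0.0436), and Cdx1, Cdx2 and Muc2 were too low to be tested. Only 1 pancreatic gene could be tested, without a call. Neutrophil (12 genes), lymphocyte (10), proliferation (15), immediate early (10) and hypoxia-response genes (11) had 0 calls each, with medians of 0.21, 0.36, -0.16, 0.41 and -0.06. At an unadjusted edgeR p of at most 0.05, 0, 0, 0, 5 and 1 genes of these lists were higher and 0, 0, 2, 0 and 4 lower. Of all tested genes 11.2% were higher and 11.4% lower at that threshold. Mki67, the proliferation marker, was 56.2 ± 8.13 against 84.5 ± 6.19 CPM in NEJ146, 181 against 151 in NEJ634, 161 against 159 in NEJ723 and 83.7 against 116 in NEJ687 (adjusted p = 0.308), in no common direction.

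Positive spots were not all alike. In NEJ146 429 had both keratins, 159 Krt19 only and 122 Krt7 only, in NEJ634 the numbers were 655, 93 and 130, in NEJ723 101, 10 and 154, and in NEJ687 14, 14 and 2. Spots with both keratins had the highest Spp1 in NEJ146 (856 CPM, against 545 on Krt19-only and 435 on Krt7-only spots, means of 4 sections). Krt7-only spots differed from Krt19-only spots of the same sections in hepatoblast genes, with Afp at 2794, 7146, 6563 and 4276 CPM in sections 1 to 4 against 897, 1720, 1651 and 1128. Dlk1 was 92.0, 313, 307 and 172 CPM against 15.7, 37.9, 48.9 and 11.5. Both genes were higher on Krt7-only spots in 4 of 4 sections, and Cldn7 was too (176 against 36.0 CPM in the mean). The summed mesothelial level was also higher on Krt7-only spots, at 228, 328, 325 and 389 CPM in sections 1 to 4. On Krt19-only spots it was 150, 123, 111 and 76.5 CPM, and its part in these differences was not tested. Tff2 (7.33 against 21.3 CPM) and Wfdc2 (26.1 against 50.2 CPM) went the other way. The sections are adjacent cuts of 1 tumor and the kinds were read from the selecting counts, so this is a description. In NEJ634 the same comparison gave 4815 against 4487 CPM of Afp and 142 against 101 CPM of Dlk1, closer together. There Tff2 (23.2 against 21.6 CPM) and Wfdc2 (37.6 against 33.0 CPM) did not share the direction seen in NEJ146. In NEJ723, with 10 Krt19-only spots, Afp was 3651 against 3262 CPM and Dlk1 142 against 209. In NEJ687, on 2 Krt7-only and 14 Krt19-only spots, Afp was 2526 against 3062 CPM and Dlk1 0 against 23.1.

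**Figure D4:**
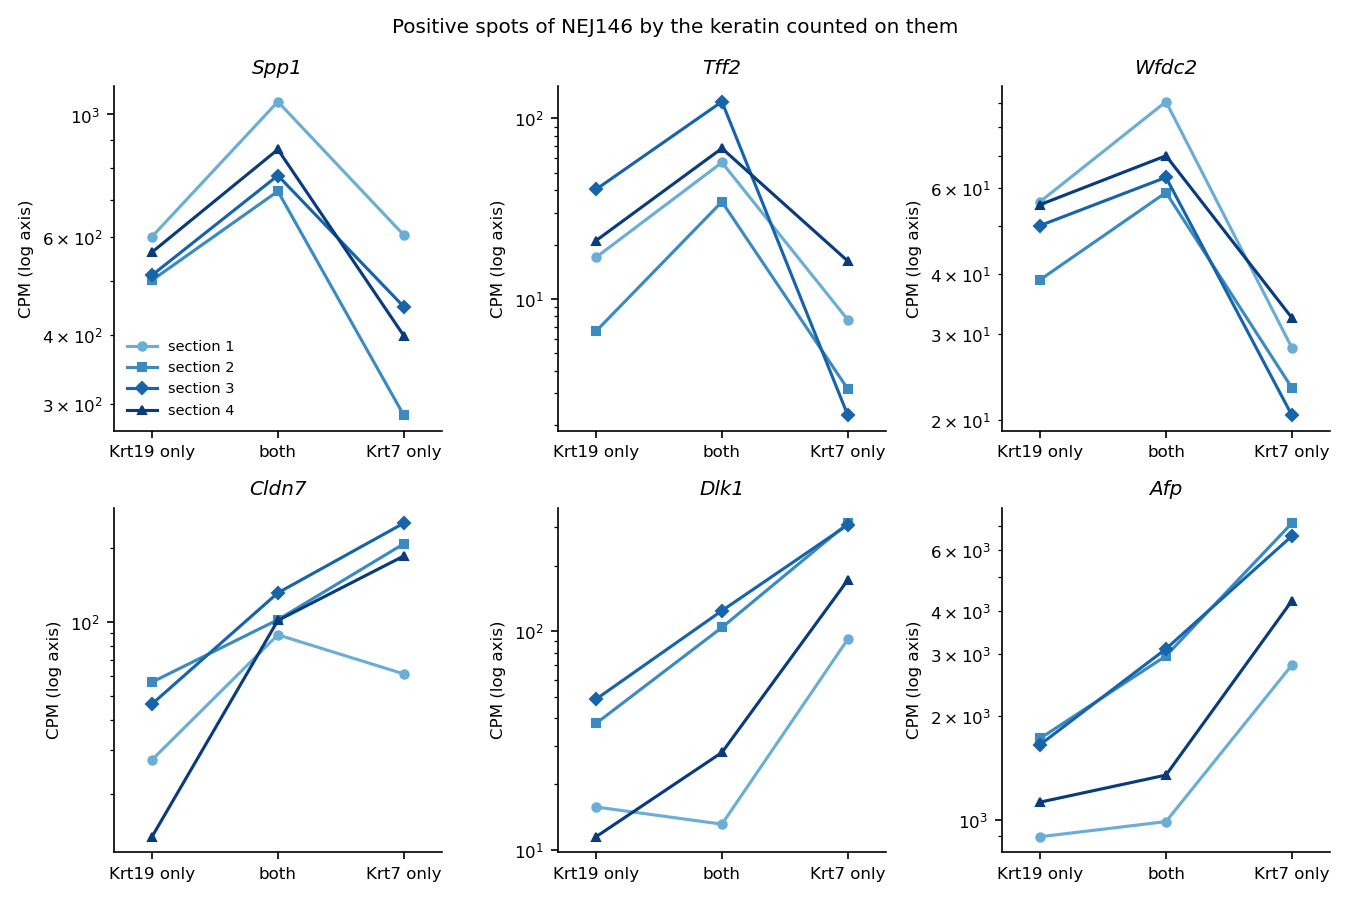
Each panel shows 1 gene on positive spots of NEJ146 with Krt19 only, both keratins or Krt7 only, as CPM on a log axis, with a line for each of the 4 sections. Dlk1 and Afp are highest on Krt7-only spots in 4 of 4 sections, and Tff2 and Wfdc2 lowest there.

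Whether the surroundings of positive spots differed was asked on zero spots alone, comparing those adjacent to a positive spot with those 3 or more steps away. Of 12557 genes tested 0 passed in either direction by edgeR or by DESeq2 (0% called), and 712 were higher and 308 lower at an unadjusted edgeR p of at most 0.05 (5.67 and 2.45%). At that unadjusted threshold 12 of 17 duct keratin and junction genes and 14 of 20 fibroblast genes were higher, and 0 of either list lower. Of 16 Notch, 12 neutrophil and 15 proliferation genes 0 were higher. NEJ634 offered only 19 distant zero spots, and without it 64 genes were higher and 4 lower, while without NEJ723 11 were higher and 2 lower. The 10 genes with the largest mean differences of the same sign in every tumor, none of which passed, were all higher beside positive spots (7.45% of all tested genes were higher and 7.4% lower in 4 of 4 tumors), namely Cldn7, 1700011H14Rik, Ano1, St14, Ptgfrn, Nrarp, Tff2, S100a4, Cldn4 and Epcam.

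Levels varied with distance from the positive spots. In NEJ146 Epcam went from 53.0 CPM on positive spots to 11.8, 5.49, 3.85 and 2.93 CPM at 1 to 4 steps and 1.29 beyond, and Spp1 from 718 to 155, 92.8, 74.8, 57.0 and 27.9 CPM. In NEJ687 Epcam dropped within 1 step, from 68.2 to 1.81 CPM, and Spp1 from 1630 to 127. In NEJ723 Epcam moved little, from 85.9 to 56.8, 49.4, 47.5, 46.7 and 36.0 CPM. In NEJ634 Epcam was 92.8, 24.1 and 7.43 CPM on positive spots and at 1 and 2 steps, and Spp1 556, 195 and 218 CPM, which was no steady decline. As a ratio, the first step in Epcam was thus the largest in NEJ687 and the smallest in NEJ723. Clu in NEJ146 had a long tail, from 2173 to 1074, 842, 702, 588 and 319 CPM.

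**Figure D5:**
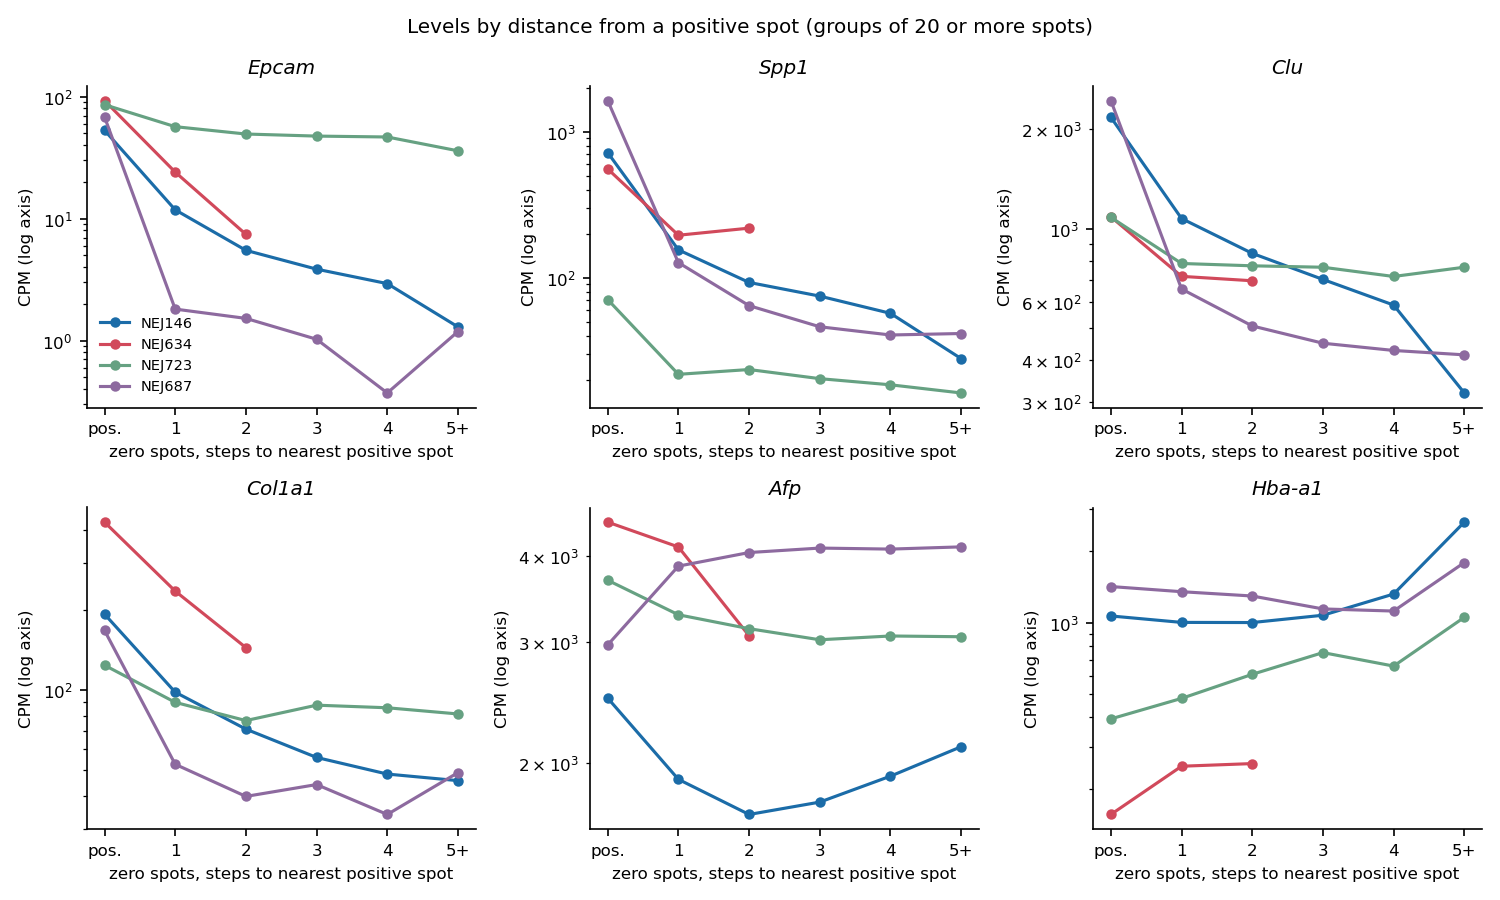
Each panel shows 1 gene as CPM on a log axis, on positive spots and on zero spots 1, 2, 3, 4 and 5 or more steps from the nearest positive spot, with a line for each tumor and groups of at least 20 spots only. Epcam and Spp1 drop most at the first step, both in NEJ687 (68.2 to 1.81 and 1630 to 127) and in NEJ146 (53.0 to 11.8 and 718 to 155), and Hba-a1 is highest at 5 or more steps in NEJ146 (2646), NEJ723 (1054) and NEJ687 (1789).

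Over single spots, the genes that varied most like Krt19 were Spp1, S100a6, Clu, Tmsb10 and Igfbp7, with a mean Spearman correlation over the 4 tumors of 0.26, 0.25, 0.23, 0.21 and 0.20 among 6904 genes. In NEJ634 the value for Spp1 was 0.45 and in NEJ723 0.13. These are weak correlations in sparse counts, the spots of a section share 1 library and differ in depth, and they serve only as a description.

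The 3 tissues that the study's text does not name as tumors, by elimination its healthy livers, held few positive spots, and their values are given side by side without a test. NEJ638 had 50 (1.5% of 3338 spots), NEJ654 14 and NEJ677 8. These positive sides held 1091600, 267195 and 213561 UMIs, so a value of a few CPM on them rests on very few UMIs. On them Spp1 was 958, 1127 and 1147 CPM, against 91.7, 51.8 and 57.0 on the zero spots of the same sections, and Epcam was 59.5, 37.4 and 18.7 CPM against 3.48, 2.13 and 1.54. Afp was 8.24, 0 and 0 CPM on these positive spots and Dlk1 was at 0 in all 3, whereas Afp ran from 2486 to 4479 CPM on the positive spots of the tumors. The summed level of the hepatoblast and oncofetal list was 19436, 16894 and 15260 CPM on the positive spots of NEJ638, NEJ654 and NEJ677. On those of the tumors it was 12448 to 17031 CPM. Such a sum is carried by its most abundant members, and Afp made 8.24 CPM or less of it in these 3 tissues. It therefore does not show that the genes of the list were at like levels. Cldn4 was 8.24, 7.49 and 4.68 CPM on them, against 10.9 CPM in NEJ687 and 53.3 to 108 CPM in the other 3 tumors. The YAP target, basement membrane and fibroblast lists, which held rises in the tumors, were also higher on these positive spots. The summed YAP target level was 213 against 105 CPM in NEJ638, 292 against 96.7 in NEJ654 and 201 against 80.2 in NEJ677. In the tumors it was 311 against 116 CPM in NEJ146, 236 against 158 in NEJ634, 220 against 167 in NEJ723 and 392 against 158 in NEJ687. Basement membrane genes summed to 1576 against 636, 906 against 368 and 885 against 331 CPM in NEJ638, NEJ654 and NEJ677, and fibroblast and portal mesenchyme genes to 4472 against 781, 2122 against 460 and 2266 against 317 CPM. None of these 3 lists was thus higher on the positive side of the tumors alone. Not every list with rises did the same. Biliary transcription factors summed to 219 against 174 CPM in NEJ638 and 262 against 180 in NEJ654, but to 164 against 208 in NEJ677. The last value comes from 8 positive spots, and whether it differs by more than counting error was not tested. Intestinal genes summed to 173 against 195, 105 against 113 and 108 against 165 CPM in NEJ638, NEJ654 and NEJ677. Their sum was lower on positive spots in the tumors as well. It was 284 against 337 CPM in NEJ146, 856 against 948 in NEJ634, 711 against 736 in NEJ723 and 718 against 989 in NEJ687. In NEJ638 60% of positive spots were marginal (19.2% of zero spots), and the summed mesothelial level of that section was 213 against 11.8 CPM.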

How the data were processed

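Visium libraries of 10 sections were analyzed. The authors deposited unfiltered matrices of UMI counts, not normalized, aligned to mm10 with Space Ranger 1.3 and, for NEJ146 (labeled total RNA, the others polyA RNA), Cell Ranger 6.0 per the submitters' processing notes; the study's methods name Space Ranger. Visium barcodes are array positions and are shared by all libraries. Spots had to be called in tissue with 2000 or more UMIs, or hold 8000 or more in NEJ146, which had no tissue call.

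Counts were summed per side and tumor, averaged over the 4 NEJ146 sections and rounded, filtered with filterByExpr, and tested with edgeR 4.0.16 (R 4.3.3; TMM, quasi-likelihood F-test, tumor as block because both sides come from the same section, Benjamini-Hochberg at 0.05). The filter took the side as its group, so a gene could be kept through the libraries of a single side. Krt19 and Krt7 were left out. Some listed genes are not reported here. CPM are raw counts per 1000000 UMIs of the summed side, and differences use log2(CPM + 1). Fitted values and fitted list medians are relative to TMM scaling. The list medians of single tumors use library totals without TMM, and over all genes tested they were 0.16, 0.12, 0.003 and 0.099 in NEJ146, NEJ634, NEJ723 and NEJ687. With 4 tumors, p-values measure the spread between these animals' sections. Genes named were the 20 largest rises and 10 largest falls among calls with one direction in every tumor, plus members of 26 fixed lists (4 listed names were not in the files); in the zero-spot comparison, where no gene passed, the 10 largest mean differences. The members and lists were chosen with earlier results of these data known. On simulated counts for the main comparison (13648 genes) 79 of 100 genes changed 2-fold and 96 of 100 changed 4-fold were recovered. There were 3 false calls among 13448 genes. These figures hold for genes with the same fold in every tumor. Recovery of genes whose ratio differs between tumors, as that of Epcam did, was not tested. DESeq2 1.42.0 and limma 3.58.1 served as alternatives. Gene positions are GENCODE vM21; 30934 of 31053 gene identifiers matched.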

Additional observations from a re-analysis of the deposited data

Results flagged for a closer look

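Krt19 and Krt7 RNA was counted on spots outside the tissue outline, which entered no comparison. There it made 77.1 CPM in NEJ634, 25.5 CPM in NEJ723 and 2.62 CPM in NEJ687, so the order of the sections off the tissue was that on it. The off-tissue level in NEJ687 rested on 11 UMIs. Whether these counts come from RNA that spread from the tissue or from tissue outside the called outline was not tested. Among 55 groups of 4 values (the list medians over the NEJ146 sections and over the tumors, and the NEJ146 shares and keratin levels), none held a value that stood apart by Dixon's test.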

How the results depend on the processing

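The count of genes that passed between positive and zero spots (190 higher, 135 lower) depended on the processing, while none of these 325 genes turned in sign under an alternative that tested it. It was 150 higher and 81 lower with DESeq2 size factors in the same fit, 517 and 381 with the DESeq2 Wald test, 952 and 740 without a filter on low counts, and 0 and 0 with library totals only, with limma on log2 differences and with at least 30 counts in every library. With 1 or more UMIs as the rule 0 and 0 passed, with 3 or more 68 and 44, with 4 or more 421 and 331 (NEJ687 then had too few spots and was left out of both), with Krt19 alone, tested over NEJ146 and NEJ634 only, 1 and 0, and with Krt7 alone, tested without NEJ687, 0 and 0, so the keratin and the tumors changed together. Dropping zero spots adjacent to positive ones gave 107 and 32, and zero spots within 4 steps 500 and 396. Leaving out marginal spots, which takes NEJ687 to 29 positive spots and out of the test, gave 0 and 0. Leaving out 1 tumor or 1 NEJ146 section gave 0 to 951 higher and 0 to 650 lower. In the comparison of zero spots (0 and 0) the values were 338 and 46 without a filter and 146 and 11 with distant spots at 5 or more steps, where NEJ634 could not enter, and 0 to 64 and 0 to 4 when a tumor or section was left out. Shares thinned to 8000 UMIs were 1.37, 18.3, 2.96 and 0.319%, and with the minimum doubled the NEJ146 share was 5.24%. The cause of these shifts was not tested. For the genes named in the first comparison 349 of 770 values across alternatives fell short of the threshold with the direction kept, and 668 of 698 list medians moved by less than the spread between tumors. Keeping tumors with under 30 positive spots was not run, since every tumor had 30.

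Both sides of a tumor come from the same section, so the tumor pairs the libraries, and the fit without that pairing (no replicate block) passed 0 genes higher and 0 lower in both comparisons. Between positive and zero spots depth limits NEJ687 most, where a positive side of 644730 UMIs leaves genes of a few CPM with a handful of UMIs, and between zero spots it limits NEJ634 most, whose distant side held 606968 UMIs.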
